A study of Mus musculus with 8 samples.

Results

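*Stac2*, *Nsg2*, *Pacsin1*, *Rgmb* and *Maged1* are 5 genes best known from neurons and excitable cells whose transcripts were low in wildtype CD8+ tumor-infiltrating lymphocytes (TILs) and many times higher in LSD1-deficient ones. They were selected by symbol, with their measured difference between these genotypes already known, from 55335 genes in the count table, of which 15378 had enough counts to be tested. The contrast that chose them is therefore given below as a description, with no test.

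The data are RNA-seq counts of CD45.2+TCRβ+CD8+CD44+PD-1+ T cells from MC38 tumors, a mouse colon adenocarcinoma line that grows as an implant in C57BL/6 mice. The wildtype group (WT, 4 samples) came from littermates that carry *Lsd1* alleles flanked by loxP sites and no Cre (Lsd1f/f). The LSD1-deficient group (KO, 4 samples) came from Cd4-Cre+Lsd1f/f mice, in which the *Cd4* promoter drives Cre in developing T cells, so that CD4+ T cells lose LSD1 as well. Tumors were taken on day 18 per the labels, and the design text of the series gives another day. Cells from 2 mice were pooled for a WT sample, while 1 mouse gave a KO sample, so pooling and genotype cannot be told apart. About 10000 to 20000 sorted cells were used per sample. The count columns carry sample numbers without replicate names: the WT columns are S1, S2, S3 and S4, and the KO columns are S5, S6, S7 and S8. In such bulk samples, more cells that express a gene and more RNA per cell cannot be told apart.

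LSD1, encoded by *Kdm1a*, removes methyl groups from lysine 4 of histone H3, a mark of active promoters and enhancers. It works in a complex with CoREST proteins and histone deacetylases, and DNA-binding repressors bring that complex to chosen genes. In cells outside the nervous system the repressor REST uses it to hold neuronal genes silent, and in blood cells GFI1 recruits it to other genes. The proteins of the 5 genes share no biochemical role: STAC2 is an adaptor of voltage-gated calcium channels, NSG2 resides in neuronal endosomes and affects AMPA receptor traffic, PACSIN1 (syndapin I) bends membranes and binds dynamin during synaptic vesicle retrieval, RGMB (DRAGON) is a GPI-anchored co-receptor for bone morphogenetic proteins (BMPs) that also binds neogenin and PD-L2, and MAGED1 (NRAGE) binds the p75 neurotrophin receptor.

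The genes lie at separate places in the genome (GRCm38, GENCODE M21). *Stac2* is on the reverse strand at chr11:98036623-98053462 and *Nsg2* on the forward strand at chr11:32000463-32059202. *Pacsin1* is on the forward strand at chr17:27655509-27711482, *Rgmb* on the reverse strand at chr17:15803188-15831039 and *Maged1* on the reverse strand at chrX:94535474-94542143. They have 12, 6, 11, 6 and 8 blocks of exon sequence, in that order, with 3139, 4157, 6525, 7669 and 4351 bases. No annotated gene of the table overlaps any of the 5, on either strand.

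Promoters are shown because REST and GFI1, which recruit LSD1, bind known motifs. That all 5 genes were higher in KO follows from how they were chosen. RefSeq promoter windows on GRCm38.p6, each running from 250 bases before to 50 after a start site, were matched for 4 of the 5 genes and gave 7 windows of 32817. *Stac2* had no entry. *Nsg2* and *Rgmb* had more than 1 window each, and windows of *Rgmb* overlapped in part, so the 7 are not independent. Exact matches to 6 motifs were sought on both strands: the left arm of the REST element RE1 (TTCAGCACC), its right arm (GGACAGCGC), a TCF motif (CTTTGA), a GFI1 motif (TAAATCAC), the CCAAT box (CCAAT) and the GC box (GGGCGG). The RE1 left arm was found in 0.372% of all windows and in 1 of the 7, a window of *Nsg2*. It lies at chr11:32000499-32000507, 201 bases before a RefSeq start site, in sequence that GENCODE annotates as exon and UTR. The stretch around it, chr11:32000496-32000525 on the forward strand, follows with the match in capitals:
Nsg2 RE1 left arm: tttTTCAGCACCacgctctggctgaggagg

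None of the 7 windows held the RE1 right arm (0.402% of all windows), the TCF motif (16.0%) or the GFI1 motif (0.579%). The CCAAT box was in 3 of the 7 and in 37.4% of all windows, and the GC box was in 3 of the 7 and in 35.6% of all. The CCAAT matches were in windows of *Nsg2* and *Rgmb*, and the GC box matches in windows of *Pacsin1* and *Rgmb*. A match is a description of letters and not a shown binding site. The bases upstream of one start site of each gene, outside annotated exons, follow on the gene's own strand with motif matches in capitals. They are chr11:32000169-32000418 for *Nsg2*, chr17:27684989-27685180 for *Pacsin1*, chr17:15831066-15831315 for *Rgmb* and chrX:94542144-94542275 for *Maged1*:
Nsg2: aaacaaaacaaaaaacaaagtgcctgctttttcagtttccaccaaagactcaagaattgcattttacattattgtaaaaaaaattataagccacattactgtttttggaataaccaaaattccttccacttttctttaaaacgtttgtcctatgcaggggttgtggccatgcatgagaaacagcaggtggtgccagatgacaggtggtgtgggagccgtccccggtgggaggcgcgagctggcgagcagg
Pacsin1: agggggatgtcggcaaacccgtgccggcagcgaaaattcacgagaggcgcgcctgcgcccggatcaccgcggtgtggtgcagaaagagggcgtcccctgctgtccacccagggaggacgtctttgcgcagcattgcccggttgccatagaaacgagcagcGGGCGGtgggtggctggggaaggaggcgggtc
Rgmb: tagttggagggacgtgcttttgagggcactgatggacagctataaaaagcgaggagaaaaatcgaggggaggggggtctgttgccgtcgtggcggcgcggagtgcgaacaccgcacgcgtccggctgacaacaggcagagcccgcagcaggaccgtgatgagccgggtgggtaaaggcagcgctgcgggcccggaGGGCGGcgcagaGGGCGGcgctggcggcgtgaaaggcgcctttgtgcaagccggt
Maged1: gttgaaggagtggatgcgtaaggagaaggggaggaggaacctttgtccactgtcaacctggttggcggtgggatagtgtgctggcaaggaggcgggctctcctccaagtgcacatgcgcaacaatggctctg

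The windows differed in base composition. The *Pacsin1* window had 71.7% G and C, higher than 92.6% of all windows, whereas the *Nsg2* window at the upstream start had 47.0%, against a median of 52.7% over all windows. CpG dinucleotides, given as observed over expected from base composition, ranged from 0.479 in a *Nsg2* window to 1.03 in a *Rgmb* window, and all 7 were above the median of 0.383.

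Library totals were 11657807 to 19007676 counts in WT and 11858010 to 30295406 in KO, and 3 counts, the limit that a count of 0 allows, correspond to 0.106 to 0.250 CPM (counts relative to the library total, scaled with TMM factors). *Kdm1a* was 44.9 ± 1.87 CPM in WT and 30.6 ± 4.03 in KO (SD, n = 4 each), all 4 KO samples lying under the WT samples, with a log2 difference of -0.55 that missed the call (adjusted p = 0.0163, edgeR's quasi-likelihood test with Benjamini-Hochberg adjustment). A count over the whole gene can include transcripts of the recombined allele. The 10 CD8 T cell markers summed to 4239 to 4850 CPM in WT and 4007 to 4851 in KO. Of the 10, edgeR called 2 higher, *Cd44* and *Cd2* (log2 differences 0.86 and 0.80), and 0 lower. Over all tested genes, 2.91% were called higher and 1.99% lower. For *Cd3g* and *Cd8b1* all KO samples lay under the WT samples (-0.36 and -0.39, not called). The share of all genes with that order was not computed. An unadjusted p under 0.05 in edgeR was found for 6 of the 10, beside 24.5% of all genes. The 16 myeloid markers summed to 461 to 1424 CPM in WT and 233 to 329 in KO. Of the 15 tested, 12 were called lower, beside 1.99% of all tested genes.

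The label of neuron-type genes was checked against 12 neuron markers. Of the 12 markers, 9 stayed under 1 CPM in every sample, including 2 with no count at all. *Map2* and *Tubb3*, the 2 that were tested, gave no call in edgeR, with neither at an unadjusted p under 0.05 and neither called by DESeq2. Their list summed to 5.61 to 14.4 CPM in WT and 4.17 to 14.8 in KO. The samples thus held the markers of CD8 T cells in either genotype. Of the neuron markers they held little beyond *Map2*, which had at most 11.3 CPM in any sample.

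Over all tested genes, edgeR called 447 or 2.91% higher in KO (fold change above 1.5 and adjusted p under 0.01) and 306 or 1.99% lower, so that 4.9% were called in either direction. DESeq2 called 7.01% in either direction, and 24.5% had an unadjusted p under 0.05 in edgeR. These shares are the background for the marker lists above and the gene lists below. The 5 genes are among the 447, and in each of them every KO sample lay above every WT sample, as in 8.99% of all tested genes. Both follow from choosing the genes on this contrast and are no evidence about them.

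*Stac2*, the calcium channel adaptor, was the nearest to silent in WT. Its counts were 28, 17, 13 and 19 in S1 to S4, or 1.63, 0.926, 1.06 and 1.57 CPM. In S5 to S8 they were 441, 552, 494 and 1638, or 29.0, 44.6, 41.2 and 57.6 CPM. The lowest KO sample, S5, was 17.8 times the highest WT sample, and the groups were far apart. The mean level went from 1.30 ± 0.354 to 43.1 ± 11.8 CPM (SD, n = 4 each), a log2 difference of 5.06 (SE 0.27). This ranked 20 among all tested genes and 5 among those with a mean log2 CPM above 2.

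*Nsg2*, the endosomal protein gene, was already present in WT cells at 8.89, 14.1, 10.9 and 13.6 CPM in S1 to S4. Its KO levels were 86.2, 76.8, 79.9 and 84.9 CPM in S5 to S8. The KO samples were close together, and none came near a WT sample, the lowest KO level being 5.44 times the highest WT level. The means were 11.9 ± 2.45 and 81.9 ± 4.39 CPM, and the log2 difference was 2.79 (SE 0.16).

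*Pacsin1*, the membrane-bending partner of dynamin, had 12.8, 17.3, 15.9 and 15.2 CPM in the WT samples and 105.8, 108.4, 93.7 and 70.5 CPM in the KO samples. S8, the KO sample highest for *Stac2*, was the lowest here, and its level was still 4.08 times the highest WT level. The means were 15.3 ± 1.85 and 94.6 ± 17.3 CPM, and the log2 difference of 2.63 (SE 0.16) was the smallest of the 5.

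*Rgmb*, the BMP co-receptor, had 3.14, 4.47, 6.85 and 3.46 CPM in S1 to S4, from 54, 82, 84 and 42 counts. In S5 to S8 it had 60.2, 52.1, 62.7 and 57.9 CPM. S3 stood highest in WT and S7 in KO, with no overlap between the groups. The means were 4.48 ± 1.68 and 58.2 ± 4.51 CPM, and the log2 difference was 3.71 (SE 0.22).

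*Maged1*, the X-linked partner of the p75 neurotrophin receptor, had 2.21, 3.76, 4.49 and 2.31 CPM in the WT samples. In the KO samples it had 61.3, 48.7, 42.5 and 47.2 CPM. S3 was again the highest WT sample, S5 was the highest KO sample, and the groups did not overlap. The means were 3.19 ± 1.12 and 49.9 ± 8.04 CPM, and the log2 difference was 3.97 (SE 0.24).

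**Figure D1:**
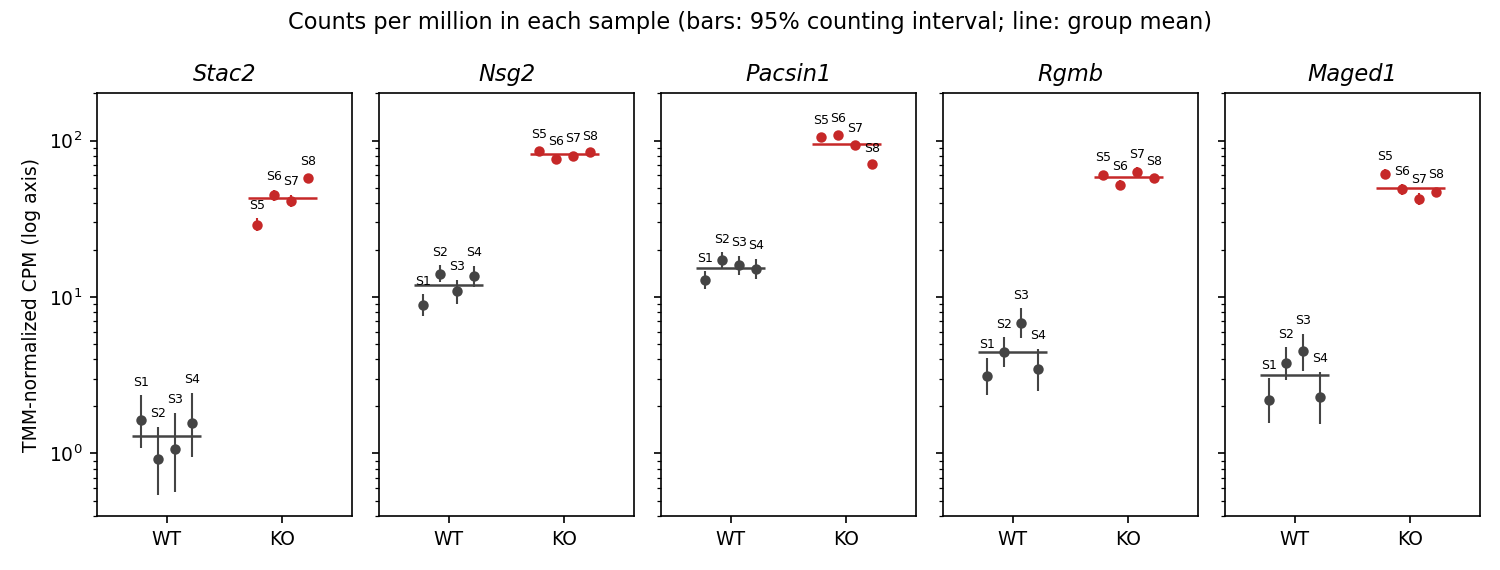
TMM-normalized CPM of the 5 genes on a log axis in the 4 WT samples (S1 to S4) and the 4 KO samples (S5 to S8), with a line at each group mean and bars for the exact 95% Poisson interval of each count. Every KO point lies above every WT point, by the widest margin for *Stac2* (lowest KO over highest WT, 17.8) and the narrowest for *Pacsin1* (4.08).

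The samples did not keep the same order across all 5 genes. *Rgmb* and *Maged1* did share a WT order, S3, S2, S4 and S1 from highest to lowest. In WT, S1 was lowest for *Nsg2*, *Pacsin1*, *Rgmb* and *Maged1* and highest for *Stac2*. In KO, the highest sample was S8 for *Stac2*, S5 for *Nsg2* and *Maged1*, S6 for *Pacsin1* and S7 for *Rgmb*, so that each of the 4 KO samples led for at least 1 gene. S3 had the highest myeloid marker sum (1424 CPM) and S1 the lowest in WT (461 CPM). Without S3 the log2 differences of *Rgmb* and *Maged1* were 3.97 and 4.16, and without S1 they were 3.57 and 3.82. The part of myeloid RNA in these differences was not tested.

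Counting error was larger in WT, where counts were few. There the coefficient of variation of *Stac2* was 27.3%, beside 23.2% for counting error alone from 77 counts in all. For *Rgmb* it was 37.5% beside 12.6%, for *Maged1* 35.02% beside 14.8%, for *Nsg2* 20.6% beside 7.65% and for *Pacsin1* 12.1% beside 6.73%. In KO, with 3125 to 6080 counts per gene, counting error was 2.695% to 3.84%. In that group the spread of *Nsg2* (5.36%) and *Rgmb* (7.75%) was the smallest, and that of *Stac2* (27.3%) the largest, with *Pacsin1* at 18.3% and *Maged1* at 16.1%.

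Levels were compared between genes as CPM per kilobase of exon. In WT the mean level was 2.85 for *Nsg2*, 2.35 for *Pacsin1*, 0.734 for *Maged1*, 0.584 for *Rgmb* and 0.413 for *Stac2*. The ranges of neighbours in this order overlapped except between *Pacsin1* and *Maged1*, although *Nsg2* was above *Pacsin1* and *Maged1* above *Rgmb* in 4 of 4 samples. *Rgmb* was above *Stac2* in 2 of 4. In KO the mean level was 19.7 for *Nsg2*, 14.5 for *Pacsin1*, 13.7 for *Stac2*, 11.5 for *Maged1* and 7.59 for *Rgmb*. *Nsg2* stood clear of *Pacsin1*, and *Maged1* stood clear of *Rgmb*. The ranges of *Pacsin1*, *Stac2* and *Maged1* overlapped in turn, each pair keeping its order in 3 of 4 samples. *Stac2* thus went from the lowest of the 5 in WT to a place among the middle 3 in KO.

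Against all tested genes, the WT level per kilobase of *Stac2* was at percentile 7.21, *Rgmb* at 10.3, *Maged1* at 13.1, *Pacsin1* at 33.0 and *Nsg2* at 37.7. In KO the percentiles, in the same order, were 78.6, 64.2, 74.6, 79.7 and 85.6. The 5 genes were therefore in the lower part of the distribution in wildtype cells and in the upper part in LSD1-deficient cells.

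**Figure D2:**
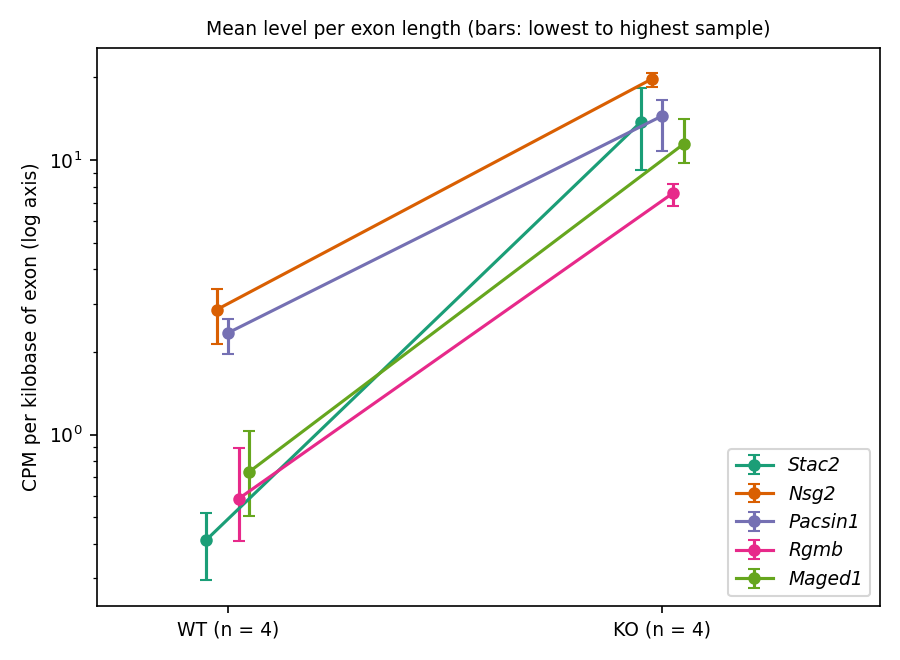
Mean level of each of the 5 genes in CPM per kilobase of exon on a log axis in WT and KO (n = 4 each), with bars from the lowest to the highest sample. *Nsg2* is highest in both groups (2.85 and 19.7), while *Stac2* is lowest in WT at 0.413 and reaches 13.7, and *Rgmb* is lowest in KO at 7.59.

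Close relatives of the 5 genes were then examined. Of 14 paralogs, 6 (*Stac*, *Nsg1*, *Rgma*, *Hjv*, *Ndn* and *Magel2*) had no count in any sample, which allows up to 0.250 CPM in the shallowest, and *Caly*, *Magee2* and *Mageh1* had too few to be tested. The other 5 gave 0 calls in edgeR and 0 in DESeq2, with 3 at an unadjusted p under 0.05 (24.5% of all genes). *Pacsin2*, the widely expressed syndapin, had 44.9 ± 5.58 CPM in WT and 57.7 ± 12.03 in KO (log2 difference 0.36, SE 0.15, adjusted p = 0.147). *Maged2*, an X-linked MAGE gene like *Maged1*, had 6.11 ± 2.07 and 2.79 ± 0.679 CPM (log2 difference -1.12, SE 0.39, adjusted p = 0.0773). *Stac3*, which serves skeletal muscle excitation, had 1.86 ± 1.30 and 4.64 ± 2.51 CPM (log2 difference 1.31, SE 0.59, adjusted p = 0.184). *Pacsin3* and *Magee1* had log2 differences of 0.54 and 0.47, with adjusted p of 0.793 and 0.42. The median over the 5 tested paralogs was 0.47, beside -0.01 over all genes tested, and the differences between each gene and its paralogs were not tested.

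The proteins that work with the products of the 5 genes were followed as lists. Among 15 calcium channel and ryanodine receptor genes linked to STAC2, 3 had no count and 6 were tested. An unadjusted p under 0.05 in edgeR was found for 4 of the 6 (24.5% of all genes). Only 1 of the 6 was called, and it rose (16.7%, beside 4.9% of all genes called in either direction). This was *Cacnb3*, a beta subunit that T cells are known to express. It had 7.56, 3.38, 2.69 and 3.46 CPM in S1 to S4 and 13.7, 16.6, 21.95 and 25.1 CPM in S5 to S8. The groups did not overlap, and the log2 difference was 2.17 (SE 0.32, adjusted p = 0.000222, edgeR). The list's median log2 difference was 1.44, with 4 of the 6 above 0. The other two, named after their values were seen, were *Cacna1s*, a skeletal muscle channel gene whose KO samples were all under the WT samples (log2 difference -0.98, SE 0.50, adjusted p = 0.24), and *Ryr3* (-1.15, SE 0.62, adjusted p = 0.269). The other beta subunit tested, *Cacnb1*, which is also a neighbour of *Stac2*, was at 1.98 ± 0.837 CPM in WT and 5.22 ± 2.39 in KO (adjusted p = 0.0662).

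Of 11 endosome and AMPA receptor genes linked to NSG2, 6 were tested and 0 were called by edgeR or DESeq2, with 3 at an unadjusted p under 0.05 (24.5% of all genes). Their median log2 difference was 0.20. The widest difference was that of *Rab4a*, a GTPase of endosome recycling named after its values were seen, with 6.74 ± 2.80 CPM in WT and 13.6 ± 1.94 in KO and no overlap (log2 difference 1.01, SE 0.29, adjusted p = 0.0325). *Cltc*, the clathrin heavy chain and the most abundant, had 440 ± 18.9 CPM in WT and 505 ± 12.03 in KO. Of 19 endocytosis genes linked to PACSIN1, 12 were tested and 0 were called by edgeR, with 4 at an unadjusted p under 0.05 (24.5% of all genes) and a median of 0.12. *Dnm2*, the dynamin of most tissues, had 137 ± 9.99 and 145 ± 16.6 CPM. DESeq2 called 1 gene of this list, *Synj2*, a lipid phosphatase of endocytosis named after its values were seen, with a log2 difference of 0.92 in edgeR (adjusted p = 0.0203).

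The BMP pathway around RGMB was mixed. Of 25 genes, 14 were tested, and in edgeR 1 rose and 1 fell (14.3%, beside 4.9% of all genes). An unadjusted p under 0.05 in edgeR was found for 4 of the 14 (24.5% of all genes). *Bmpr2*, the type II receptor for BMPs, had 36.3, 35.6, 39.8 and 38.5 CPM in S1 to S4 and 110.0, 72.5, 92.4 and 78.0 CPM in S5 to S8. Its KO samples were all well above the WT samples (log2 difference 1.23, SE 0.14, adjusted p = 1.47e-05). *Bmp7*, a ligand, had 5.70, 4.74, 4.16 and 4.78 CPM in WT, and in KO 0.394, 0.242, 0.334 and 0.246 CPM, from 3 to 7 counts each. It fell by 3.97 on the log2 scale (SE 0.57, adjusted p = 0.000161), with no overlap between the groups. *Id2*, a target of BMP signaling and the most abundant gene of the list, had 375 ± 21.04 and 333 ± 43.9 CPM (adjusted p = 0.326). The median of the list was 0.14. *Pdcd1lg2*, the gene of PD-L2, had a log2 difference of 0.20 (adjusted p = 0.556), and DESeq2 called *Eng*, a BMP co-receptor, as well (log2 difference 2.10 in edgeR, adjusted p = 0.0447). Both were named after their values were seen.

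Among 17 genes linked to MAGED1, 5 were tested, and 3 of them had an unadjusted p under 0.05 in edgeR (24.5% of all genes). Of the 5, 1 was called (20%, beside 4.9% of all genes). *Rora*, a nuclear receptor whose activity MAGED1 is known to assist, rose from 221 ± 25.3 to 373 ± 32.7 CPM (log2 difference 0.75, SE 0.10, adjusted p = 0.000127). The list's median was -0.21. Taking each gene once over all lists, including the lists described next, 76 of 152 genes were tested. Of these, edgeR called 6 higher and 1 lower (9.21% of those tested, beside 4.9% of all genes). DESeq2 called 11, beside its 7.01% over all genes. The lists were chosen with earlier results of these data known, so these shares are a description and no evidence of enrichment.

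To compare the 5 genes with other neuronal genes, 36 genes known to carry RE1 elements were examined. In these cells 20 of them stayed under 1 CPM in every sample, including 7 with no count, and 12 were tested. Of the 12, 4 had an unadjusted p under 0.05 in edgeR (24.5% of all genes), and 1 was called (8.33%, beside 4.9% of all genes). *Chrm4*, a muscarinic receptor gene and a classic RE1 target, was the only call in edgeR, from 5.02 ± 1.70 to 12.3 ± 2.63 CPM (log2 difference 1.28, SE 0.30, adjusted p = 0.00863). It was lost in 6 of 8 fits that left out 1 sample (S2, S3, S4, S6, S7 or S8), with adjusted p up to 0.0319. *L1cam*, an adhesion molecule and the most abundant, had 34.2 ± 6.39 and 45.8 ± 22.5 CPM. The median of the list was -0.30, and 4 of the 12 were above 0. DESeq2 also called *Unc13a* and *Mapk8ip1*, named after their values were seen. In edgeR *Unc13a*, a synaptic vesicle priming gene, had a log2 difference of -1.22 (adjusted p = 0.0194) and *Mapk8ip1*, a JNK scaffold gene, of -1.86 (adjusted p = 0.0297).

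Of 17 genes of the LSD1 and CoREST complex and its recruiting factors, 16 were tested, with a list median of 0.23. An unadjusted p under 0.05 in edgeR was found for 6 of the 16 (24.5% of all genes). Of the 16, edgeR called 2 (12.5%, beside 4.9% of all genes), both higher. *Gfi1* had 45.3, 38.6, 37.5 and 34.1 CPM in S1 to S4 and 106.6, 107.2, 126.7 and 121.0 CPM in S5 to S8, a clear separation (log2 difference 1.57, SE 0.12, adjusted p = 2.4e-07). *Gse1*, a subunit found with the complex, went from 97.9 ± 11.5 to 152 ± 17.3 CPM (log2 difference 0.64, SE 0.11, adjusted p = 0.00131), a call that was lost without S5 (0.57). *Rest*, the most abundant of the list, had 147 ± 8.36 CPM in WT and 136 ± 17.0 in KO (log2 difference -0.11, SE 0.11, adjusted p = 0.584), the groups overlapping.

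**Figure D3:**
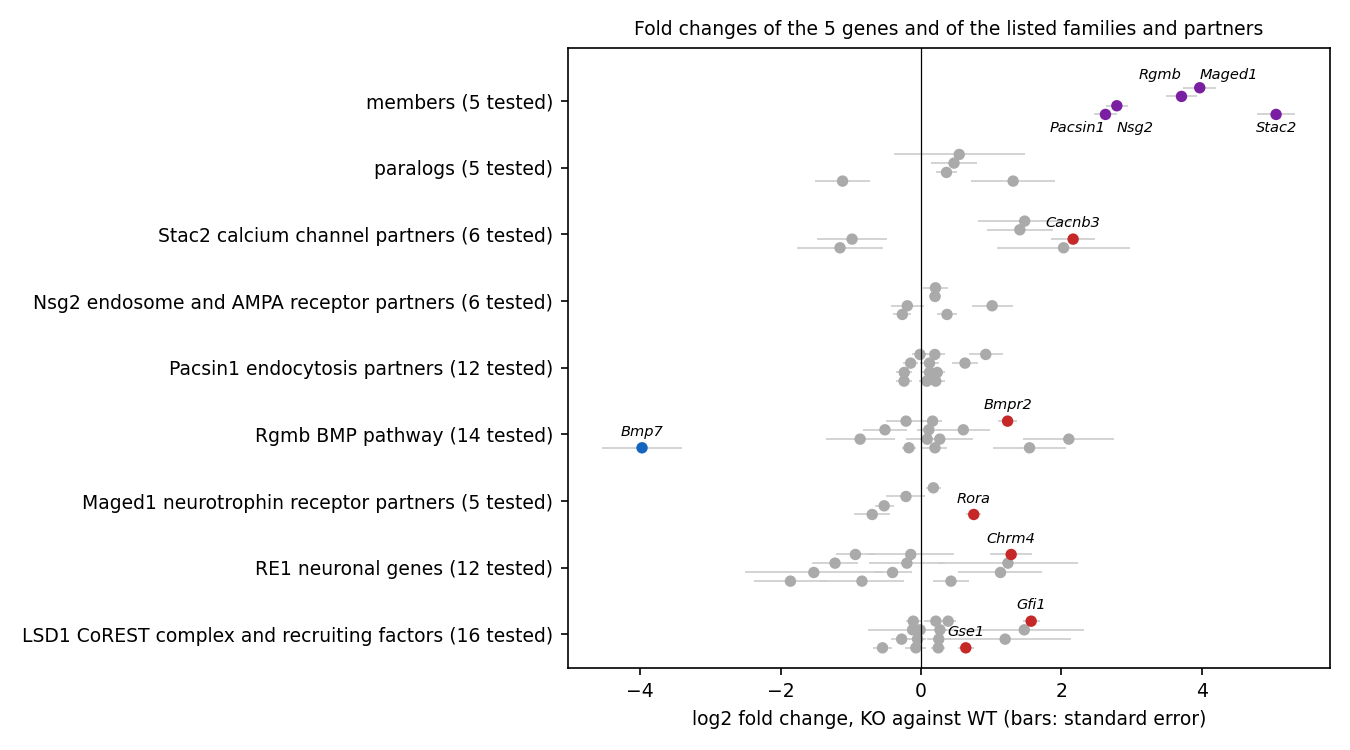
Log2 fold changes of KO against WT with standard errors for the 5 genes (purple), their paralogs, the genes linked to each protein, RE1 genes and the LSD1 complex (red called higher, blue called lower, grey not called). The 5 genes, chosen on this contrast, lie between 2.63 and 5.06, and the 7 called genes of the lists between -3.97 (*Bmp7*) and 2.17 (*Cacnb3*).

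Next, the genes on each side of the 5 were followed. The nearest 2 protein-coding genes on each side, 20 in all, gave 15 tested genes with 0 calls by edgeR and 0 by DESeq2, and 3 with an unadjusted p under 0.05, beside 24.5% of all genes. Their log2 differences ran from -1.22 to 1.41 with a median of -0.01. *Cacnb1*, 13.6 kb from *Stac2*, was the only 1 of the 15 with all KO samples above all WT samples (log2 difference 1.41, SE 0.47). That order was found in 8.99% of all tested genes. *Rpl19*, a ribosomal protein gene only 6.13 kb from *Stac2*, was at -0.24 (SE 0.11). Around *Nsg2*, *Il9r*, a cytokine receptor gene 128 kb away, was lower in all KO samples (log2 difference -1.22, SE 0.40, adjusted p = 0.0616), *Cpeb4* was at 0.10 and *Snrnp25* at -0.55.

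*Spdef*, 2.87 kb from *Pacsin1*, had at most 0.808 CPM in any sample and was not tested, while *Rps10* and *D17Wsu92e* were at -0.17 and 0.17. *Chd1*, a chromatin remodeler gene 30.6 kb from *Rgmb*, was at 0.08 (SE 0.09). *Prdm9*, 239 kb from *Rgmb*, was at -0.86, and *Zfp97*, as far as 1290 kb from it, was at 0.34. On the X chromosome, *Apoo*, *Gspt2* and *Zxdb* near *Maged1* were at 0.71, 0.81 and -0.15. *Fbxl20* and *Med1*, on the other side of *Stac2*, were at -0.22 and -0.01. None of these passed the test, and *4930524B15Rik*, *RPS10-NUDT3*, *Zfp960* and *Fam90a1b* had too few counts to be tested.

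**Figure D4:**
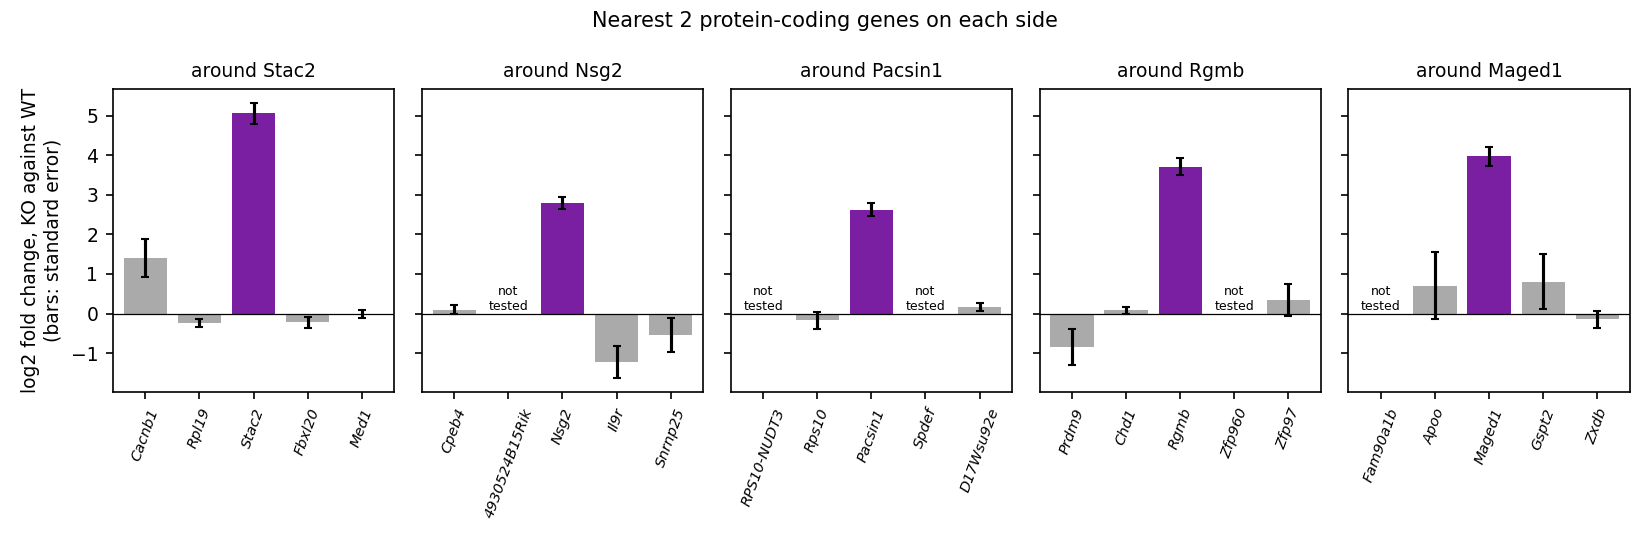
Log2 fold change of KO against WT with standard error for each of the 5 genes (purple) and the nearest 2 protein-coding genes on each side (grey), in order along the chromosome but not to scale. The neighbours lie between -1.22 and 1.41, and 5 of the 20 were not tested.

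Finally, genes with the most similar pattern were sought by Pearson's r of log2 CPM over the 8 samples, among 11225 genes with a mean log2 CPM above 2. The 8 samples fall into the 2 genotypes, so r includes the step between them. The correlation of the deviations from the group means is given beside it. Choosing genes by r also favors high values of this second correlation, so it is a description and no separate test. Nearest to *Stac2* were *Bpnt1* (r = 0.997, deviations 0.899) and *Emb* (0.992, 0.666). Nearest to *Nsg2* were *Cpm*, a membrane carboxypeptidase gene (0.996, 0.752), and *P2ry14*, a receptor for UDP-sugars (0.994, 0.821). For *Pacsin1* they were *Sestd1* (0.995, 0.792) and *Arhgef11* (0.994, 0.692), for *Rgmb* *Fam129b* (0.994, 0.779) and *Atp1b1*, a sodium pump subunit (0.992, 0.865), and for *Maged1* *Pip4k2a*, a lipid kinase gene (0.995, 0.836), and *Arhgef11* (0.993, 0.692). Each of the 5 had 113 to 132 genes with r above 0.95, so these are the nearest of many. Their steps differed in size: the log2 difference was 1.11 for *Bpnt1*, 3.36 for *Arhgef11* and 0.79 for *Pip4k2a*.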

How the data were processed

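Per the labels and the study's methods, rRNA-depleted directional libraries were read from both ends, and the authors aligned them with STAR to GRCm38 and counted reads per GENCODE gene with featureCounts. Whether counting used strand is not given in the sources used here. The deposited values are raw counts per gene, with no normalization and no pooled columns. The authors used DESeq2 after a GC content correction. The genotype of each column was read from the sample numbers in the study's PCA legend. Of 55335 gene IDs, 55154 matched GENCODE M21, which gave positions and exon lengths.

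Here edgeR 4.0.16 in R 4.3.3 was used with filterByExpr, TMM factors and the quasi-likelihood test on all 8 samples, without covariates. P-values were adjusted over 15378 genes by Benjamini-Hochberg, and a call required adjusted p under 0.01 with a fold change above 1.5. Standard errors were derived from the log2 fold change and its F statistic. Log2 CPM used a prior count of 2. Counting intervals (95%, exact Poisson) and the floor of 3 counts cover counting error only. The fit was tested on simulated data. Within groups, 12 pairs of samples differed by far more than counting noise (median chi-square per gene 4.86 to 8.53, beside 0.455), so all 8 were counted as separate samples.

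The 5 genes and all lists were chosen with earlier results of these data known. Named genes were the 5, their paralogs, *Kdm1a*, *Rest*, neighbours, every called gene and the most abundant gene of each other list, and the 2 nearest genes by Pearson's r. Other names were added after their values were seen. Alternatives were DESeq2 1.42.0, its size factors, library size alone, no filter, GC content offsets (mgcv 1.9.3), an adjusted p threshold of 0.05, leaving out each sample, a 200-base promoter window and Spearman's rho. Marker lists of other cells were summed per sample: glia 112 to 142 CPM in WT and 131 to 189 in KO, nearly all *Mbp*; B cells 1.71 to 3.43 and 1.86 to 5.71; epithelium 13.5 to 30.1 and 21.4 to 32.8; fibroblasts and endothelium 21.4 to 31.4 and 58.0 to 78.6, nearly all *Pecam1*. Their part in the results was not tested.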

Additional observations from a re-analysis of the deposited data

Results flagged for a closer look

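In 24 groups of 4 samples, covering the named genes with calls and the 5 genes, no sample stood apart by Dixon's test, where chance gives about 1 in 20, or 1.2 groups.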

How the results depend on the processing

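The log2 differences of the 5 genes moved by less than the spread between replicates in all 13 alternatives, with values without 1 sample of 4.88 to 5.21 for *Stac2*, 2.67 to 2.89 for *Nsg2*, 2.55 to 2.75 for *Pacsin1*, 3.57 to 3.97 for *Rgmb* and 3.82 to 4.16 for *Maged1*. Counts of calls moved more. Over all genes, leaving out 1 sample gave 347 to 452 calls higher, and 199 (without S2) to 303 lower. Over the lists it gave 5 to 6 higher and 1 to 2 (without S5) lower, and among neighbours 0 of either. With no filter on low counts, 642 genes were called higher and 531 lower, and 10 list genes higher and 3 lower. DESeq2's Wald test called 617 genes higher and 461 lower, and 8 list genes higher and 3 lower. At an adjusted p under 0.05, 695 genes were called higher and 551 lower, and 10 list genes higher and 4 lower. The cause of these shifts was not tested, beyond the fewer samples and the looser threshold themselves. The call of *Chrm4* was lost without S2 (1.37), S3 (1.17) or S4 (1.14), among others. With 200 bases before the start site in place of 250, none of the 7 windows held the RE1 left arm, and 0.308% of all windows did. By Spearman's rho, *Bpnt1* stayed among the 2 genes nearest to *Stac2* and *Pip4k2a* to *Maged1*, and the others differed. No paired analysis was possible because the columns carry no replicate number, and the replicate block was not run. Depth limits the WT level of *Stac2*, which rests on 13 to 28 counts per sample.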
